A study of Mus musculus with 7 samples.

Results

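The mRNAs of 10 genes were examined for which of their transcripts were counted after sub-chronic AM6545 and after vehicle: Usp2, Otud5, Mga, Tfe3, Cdk2ap1, Arpp19, Mast2, Pptc7, Apbb1 and Tstd2. They were chosen because the share of 1 transcript within the gene differed between AM6545 and Vehicle libraries, so those shares are given as a description without a test. The 10 genes hold 109 of the 102392 transcripts in the deposited transcript table, which belong to 22248 genes in the gene table. Of these 109 transcripts, 69 are annotated as protein coding, 20 as processed transcripts, 15 as retained introns and 5 as targets of nonsense-mediated decay. A low-count filter was passed by 47 of them, and 19 had 0 counts in every library.

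Messenger RNA was sequenced from hippocampal synaptoneurosomes, a preparation of presynaptic endings together with the postsynaptic parts attached to them. All animals were wild-type C57Bl/6J female mice. The AM6545 group had 4 libraries (replicates B, D, E and F) and the Vehicle group 3 (replicates B, D and E). AM6545 is an antagonist of the CB1 cannabinoid receptor that enters the brain poorly. Dose, duration, the age of the mice and how many mice stand behind a library are not given in the sources used here. Nothing says that libraries came from separate animals, so p-values measure only the spread between these libraries, which may be technical.

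A gene can give several mRNAs by starting at different promoters, by joining different exons and by ending at different polyadenylation sites. Such transcripts can encode proteins that differ by a few amino acids or by a whole domain, or the same protein with other untranslated ends. In neurons, small exons and alternative start sites are common sources of transcript variety. Short sequencing reads seldom span a whole mRNA, so reads from shared exons have to be divided among transcripts by a statistical estimate.

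In each of the 10 genes exactly 1 transcript had 0 counts in every library of one group and counts above 0 in every library of the other. It is called the group-exclusive transcript below. All 10 are annotated as protein coding, 5 were counted only in AM6545 libraries and 5 only in Vehicle libraries. Among all 27940 transcripts that passed the filter in genes with at least 2 such transcripts, 69 had this pattern (0.247%), 48 counted only in AM6545 (0.172%) and 21 only in Vehicle (0.0752%). The groups did not overlap in share for 21 of the 47 member transcripts past the filter, where 8.61% of all 27940 did not overlap. Both counts follow from how the genes were chosen and carry no further information.

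**Figure D1:**
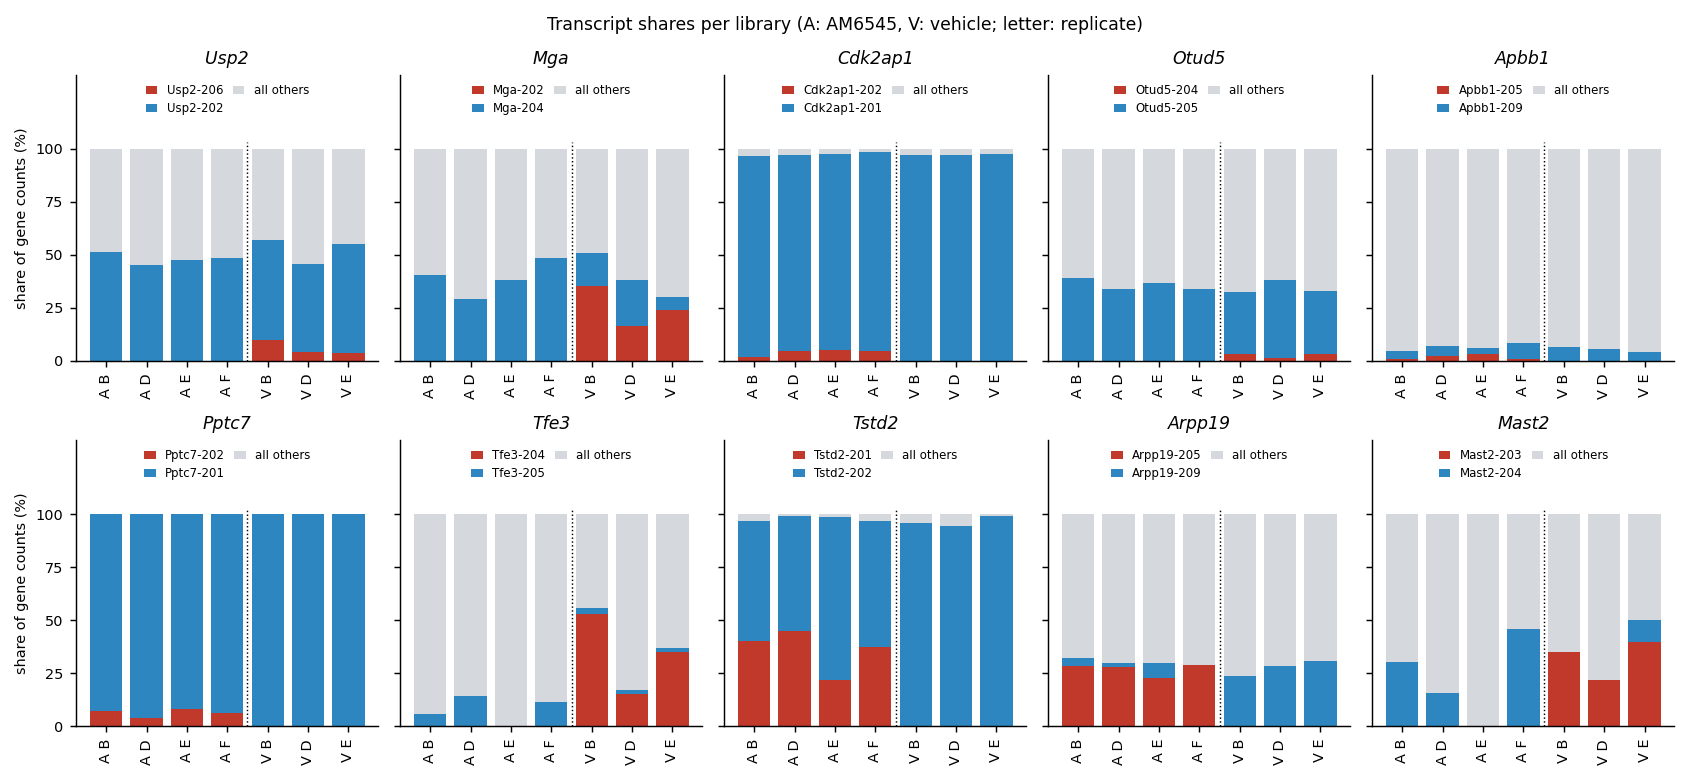
Share of each gene's transcript counts (%, vertical axis) in the 4 AM6545 libraries (A) and the 3 Vehicle libraries (V), with the replicate letter, for the group-exclusive transcript (red), its closest relative in sequence (blue) and all other transcripts (grey). Red segments stand only to one side of the dotted line in each gene, and in Mga, Tstd2, Arpp19 and Pptc7 the red and blue segments together reach similar heights on both sides.

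The closest relative was the transcript of the same gene, among those with a mean share of at least 5% in either group, with the largest ratio of 31-base stretches (31-mers) shared with the group-exclusive one to all 31-mers of both. In 8 of 10 genes it was also the transcript holding most of the group-exclusive transcript's 31-mers. The exceptions were Otud5-204, of whose 31-mers Otud5-201 holds 98.4% and Otud5-205 91.5%, and Tfe3-204, of whose 31-mers Tfe3-201 holds 97.6% and Tfe3-205 89.2%. In GENCODE release M21, several pairs differ within the coding sequence by a few bases, and a short coding difference of each is shown here. For Mast2 it is the 21-base exon. That pair also differs by 3 coding bases elsewhere (chr4:116308335-116308337), held by Mast2-203. Some pairs also differ in longer stretches, drawn in the plot of exonic bases. Capitals mark the bases held by only 1 transcript of the pair, and all sequences read 5′ to 3′ along the mRNA (GRCm38).
Usp2-202: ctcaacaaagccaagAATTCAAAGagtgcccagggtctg
Usp2-206: ctcaacaaagccaagagtgcccagggtctg
Otud5-204: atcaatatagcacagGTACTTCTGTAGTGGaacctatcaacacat
Otud5-205: atcaatatagcacagaacctatcaacacat
Mga-204: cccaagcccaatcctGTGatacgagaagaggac
Mga-202: cccaagcccaatcctatacgagaagaggac
Mast2-204: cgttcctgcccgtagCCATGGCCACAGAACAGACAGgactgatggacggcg
Mast2-203: cgttcctgcccgtaggactgatggacggcg
Apbb1-209: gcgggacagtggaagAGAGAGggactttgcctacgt
Apbb1-205: gcgggacagtggaagggactttgcctacgt

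The extra bases number 9 in Usp2 (chr9:44089132-44089140, + strand), 15 in Otud5 (chrX:7867824-7867838, + strand), 3 in Mga (chr2:119931932-119931934, + strand), 21 in Mast2 (chr4:116333413-116333433, - strand) and 6 in Apbb1 (chr7:105565946-105565951, - strand). Each is a multiple of 3 and leaves the reading frame intact. In Mast2 and Apbb1 they form a whole small exon, and in the others they lengthen an exon at one edge. Every member transcript carries a version number 1 higher in the deposited table than in M21, so the sequences used for counting may differ from these.

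**Figure D2:**
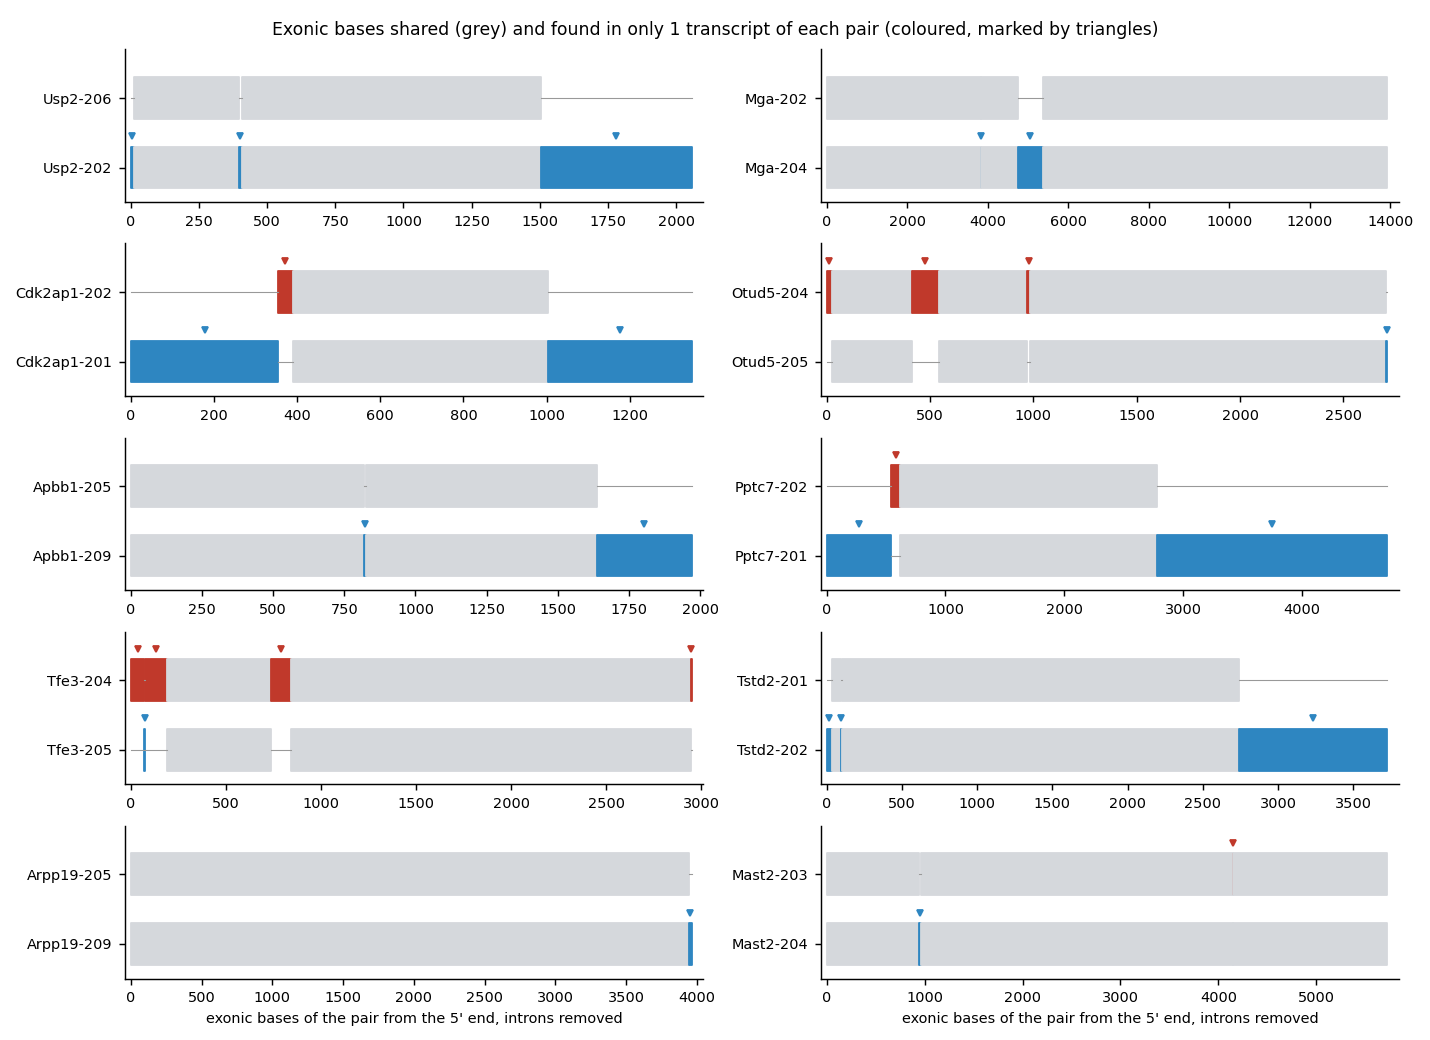
Exonic bases of each pair of transcripts from the 5′ end in bases with introns removed (horizontal axis), with shared bases in grey and bases found in only 1 transcript in colour under a triangle. Arpp19-205 and Arpp19-209 differ only in 19 bases at the 3′ end, while Cdk2ap1-202 and Pptc7-202 begin with another exon than their relatives.

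The gene totals are given before the shares, in CPM, library-scaled counts adjusted by TMM, a method that corrects for differences in library composition. For all 10 genes the AM6545 and Vehicle libraries overlapped in total, where 13.8% of the 14654 genes tested did not overlap. None of the 10 was called at the gene level (0.00682% of genes were called by edgeR's quasi-likelihood test at an adjusted p under 0.05). No p-value is given for single members, since they were chosen from the same contrast. Cdk2ap1 had a log2 fold change of -0.35 (SE 0.12), and -0.22 without Vehicle replicate B.

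**Figure D3:**
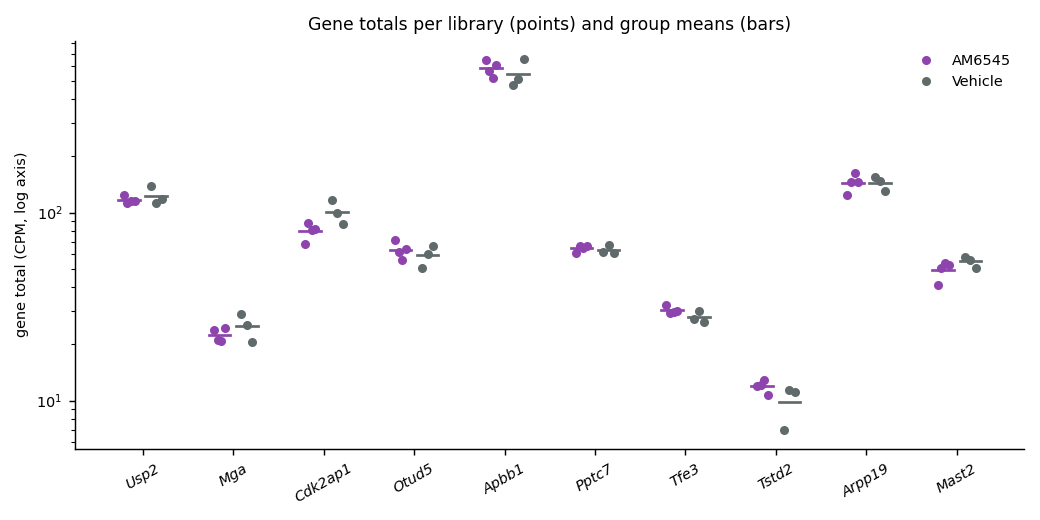
Gene totals in CPM (log axis) for the 10 genes, with 1 point per library and a bar at the mean of the 4 AM6545 and the 3 Vehicle libraries. The points of the groups overlap for every gene, from Tstd2 near 10.7 to 12.8 CPM in AM6545 to Apbb1 at 519 to 646 CPM.

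Usp2 (ENSMUSG00000032010, chr9:44067021-44095627, + strand) encodes a ubiquitin-specific protease, an enzyme that removes ubiquitin from other proteins. Its total was 116 ± 5.02 CPM over AM6545 libraries (SD, n = 4) against 123 ± 13.6 CPM over Vehicle libraries (SD, n = 3), a log2 fold change of -0.07 (SE 0.10). Usp2-206 took 9.99%, 4.29% and 3.70% of Usp2 counts in Vehicle replicates B, D and E. It was at 0 in the 4 AM6545 libraries, which together allow a share of up to 0.0267%. This bound and those given below for other genes cover counting error only. They do not cover error in dividing shared reads among transcripts. Usp2-202, which starts 11 bases upstream and keeps 9 coding bases that Usp2-206 lacks, took 48.2% ± 2.56 over AM6545 libraries (SD, n = 4) against 46.7% ± 5.01 over Vehicle libraries (SD, n = 3). The groups overlapped for this most abundant transcript. Usp2-201 and Usp2-203 both encode the longer protein, with a coding sequence of 1857 bases against 1188 in Usp2-202. Usp2-201 took 19.2% ± 1.71 over AM6545 libraries (SD, n = 4) against 22.5% ± 3.89 over Vehicle libraries (SD, n = 3). Usp2-203 took 22.1% ± 4.04 (SD, n = 4) and 17.6% ± 8.21 (SD, n = 3). Usp2-204, a target of nonsense-mediated decay, took 9.80% ± 2.26 (SD, n = 4) and 6.91% ± 2.18 (SD, n = 3). The ranges of all of these overlapped between the groups.

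Otud5 (ENSMUSG00000031154, chrX:7841364-7876626, + strand) encodes a deubiquitinase of the ovarian tumour family. Its total was 63.1 ± 6.59 CPM over AM6545 libraries (SD, n = 4) against 59.2 ± 8.04 CPM over Vehicle libraries (SD, n = 3), a log2 fold change of 0.09 (SE 0.12). Otud5-204 took 3.25%, 1.32% and 3.45% in Vehicle replicates B, D and E. Among the gene's transcripts it alone joins the 15 extra bases shown above to the next exon. It was at 0 in AM6545, where the counts allow up to 0.0491%. Otud5-206, annotated as a retained intron, also spans these bases. Its share was 0.294%, 0.674%, 0.167% and 0.279% in AM6545 replicates B, D, E and F and 0.229%, 0% and 0.32% in Vehicle. The largest difference in share belonged to another transcript, Otud5-201. It took 33.6%, 38.8%, 37.7% and 40.2% in AM6545 replicates B, D, E and F. In Vehicle it took 49.0%, 42.6% and 40.6%, so that the groups did not overlap but nearly met in AM6545 replicate F and Vehicle replicate E. Otud5-203 and Otud5-205 made up the rest, at 25.9% ± 0.823 and 35.9% ± 2.49 over AM6545 libraries (SD, n = 4) against 21.3% ± 4.23 and 31.8% ± 4.27 over Vehicle libraries (SD, n = 3). The transcripts that join their exons without the 15 bases together held 99.6% ± 0.200 over AM6545 libraries (SD, n = 4) against 97.1% ± 1.34 over Vehicle libraries (SD, n = 3).

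Mga (ENSMUSG00000033943, chr2:119897228-119969581, + strand) encodes a very large transcription factor that binds MAX and carries a T-box. Its total was 22.4 ± 1.79 CPM over AM6545 libraries (SD, n = 4) against 24.8 ± 4.09 CPM over Vehicle libraries (SD, n = 3), a log2 fold change of -0.15 (SE 0.13). Mga-202 took 35.3%, 16.6% and 24.2% in Vehicle replicates B, D and E and was at 0 in AM6545, where the counts allow up to 0.138%. Mga-204 went the other way, at 40.5%, 29.1%, 38.0% and 48.5% in AM6545 replicates B, D, E and F against 15.7%, 21.5% and 5.83% in Vehicle. The pair share 22 exons and both ends. Mga-202 lacks the 3 bases shown above and a coding exon of 624 bases (chr2:119941222-119941845), so that its coding sequence has 8499 bases and that of Mga-204 has 9126. Divided by transcript length, the share of Mga-202 differed by -10.2 percentage points between the groups in place of -25.4. Added together, the pair held 39.0% ± 8.01 over AM6545 libraries (SD, n = 4) against 39.7% ± 10.5 over Vehicle libraries (SD, n = 3), with overlapping ranges.

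The skipped exon of Mga could also be followed over all transcripts of the gene that hold or skip it. Transcripts joining into the 624-base exon held 83.0%, 80.6%, 81.9% and 80.8% in AM6545 replicates B, D, E and F and 36.5%, 60.2% and 50.9% in Vehicle replicates B, D and E. Those joining across it held 35.3%, 16.6% and 24.2% in Vehicle and 0 in AM6545. The remainder came mainly from Mga-205, a non-coding transcript that begins downstream of this exon, at 17.9% ± 1.0 over AM6545 libraries (SD, n = 4) against 24.6% ± 3.15 over Vehicle libraries (SD, n = 3). Mga-201, the other long transcript, took 42.4%, 51.3%, 43.9% and 32.1% in AM6545 and 20.8%, 38.4% and 45.1% in Vehicle, with overlap. None of Mga-201, Mga-202 and Mga-204 holds a 31-mer that no other Mga transcript has.

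Tfe3 (ENSMUSG00000000134, chrX:7762560-7775202, + strand) encodes a transcription factor of the MiT/TFE family, known for switching on genes of lysosomes and autophagy. Its total was 30.2 ± 1.38 CPM over AM6545 libraries (SD, n = 4) against 27.7 ± 1.85 CPM over Vehicle libraries (SD, n = 3), a log2 fold change of 0.12 (SE 0.10). Tfe3-204 took 53.0%, 15.4% and 35.0% in Vehicle replicates B, D and E and was at 0 in AM6545, where the counts allow up to 0.103%. The Vehicle libraries differed widely among themselves, with replicate D lowest and B highest. Tfe3-201 took 81.9%, 63.0%, 87.1% and 64.7% in AM6545 replicates B, D, E and F and 29.7%, 67.0% and 47.5% in Vehicle, where replicate D lay inside the AM6545 range. Tfe3-201 has a coding sequence of 1716 bases and Tfe3-204 one of 1401 bases. Tfe3-206, which begins near Tfe3-201 and also has a coding sequence of 1401 bases, took 9.84% ± 6.03 in AM6545 libraries (SD, n = 4) and 11.3% ± 3.20 in Vehicle libraries (SD, n = 3).

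Of the 14 Tfe3 transcripts, 8 begin near an upstream RefSeq start and 4 near a downstream one, and the 250 bases before each are shown because Tfe3-201 and Tfe3-204 begin at different ones (RefSeq, GRCm38.p6, + strand). The upstream window is chrX:7762411-7762660 and the downstream window chrX:7763693-7763942.
Tfe3 upstream: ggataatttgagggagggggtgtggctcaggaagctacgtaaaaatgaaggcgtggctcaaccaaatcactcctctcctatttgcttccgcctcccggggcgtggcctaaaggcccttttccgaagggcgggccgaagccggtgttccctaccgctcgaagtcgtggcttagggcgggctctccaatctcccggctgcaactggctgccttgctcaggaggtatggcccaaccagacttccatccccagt
Tfe3 downstream: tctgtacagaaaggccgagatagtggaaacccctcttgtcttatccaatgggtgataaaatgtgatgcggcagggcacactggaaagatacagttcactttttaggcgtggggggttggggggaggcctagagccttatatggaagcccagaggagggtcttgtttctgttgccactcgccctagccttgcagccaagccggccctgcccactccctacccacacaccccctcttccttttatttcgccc
Their GC content is 59.6% and 54.8%. The first GENCODE start, at 7762560, lies within the upstream window. The motif CACGTG, the core sequence bound by TFE3 itself, searched on both strands (it reads the same on each), is in neither window, and 6.02% of the 32851 windows of this length in the table hold it.

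Transcripts starting within 106 bases of the upstream start held 86.3%, 77.4%, 97.5% and 85.6% of Tfe3 counts in AM6545 replicates B, D, E and F. In Vehicle replicates B, D and E they held 39.7%, 81.9% and 59.0%. Those starting within 144 bases of the downstream start held 12%, 20.0%, 0% and 11.5% in AM6545 and 55.7%, 16.9% and 36.9% in Vehicle. Vehicle replicate D lay within the AM6545 range on both measures, so that the choice of start did not separate the groups, although Tfe3-204 did. In AM6545 replicates B and D, where Tfe3-204 was at 0, part of the downstream starts was counted as Tfe3-203, at 6.17% and 5.63%, and in replicates B, D and F as Tfe3-205, at 5.88%, 14.4% and 11.5%.

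Cdk2ap1 (ENSMUSG00000029394, chr5:124345417-124363082, - strand) encodes a binding partner of the cell-cycle kinase CDK2 that is also a subunit of the NuRD chromatin complex. Its total was 67.7, 87.9, 80.5 and 81.7 CPM in AM6545 replicates B, D, E and F and 117, 99.1 and 86.5 CPM in Vehicle replicates B, D and E. AM6545 replicate D lay above Vehicle replicate E, so the groups overlapped. Cdk2ap1-202 took 1.99%, 4.47%, 4.99% and 4.88% in AM6545 and was at 0 in Vehicle, where the counts allow up to 0.0430%. It begins 2438 bases downstream of Cdk2ap1-201 with an exon of its own of 34 bases, and its coding sequence has 261 bases against 342. Divided by transcript length, its share differed by 7.86 percentage points between the groups in place of 4.08. Cdk2ap1-201 made up nearly all the rest, at 93.3% ± 1.01 over AM6545 libraries (SD, n = 4) against 97.2% ± 0.223 over Vehicle libraries (SD, n = 3).

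Arpp19 (ENSMUSG00000007656, chr9:75037614-75060313, + strand) encodes a small protein that, once phosphorylated by the kinase MASTL, inhibits the phosphatase PP2A-B55. Its total was 144 ± 15.8 CPM over AM6545 libraries (SD, n = 4) against 144 ± 12.8 CPM over Vehicle libraries (SD, n = 3), with an SE of 0.11 on the log2 fold change of 0.00. Arpp19-205 took 28.5%, 27.9%, 22.9% and 29.1% in AM6545 replicates B, D, E and F and was at 0 in Vehicle, where the counts allow up to 0.0303%. Arpp19-209 took 3.87%, 1.87%, 6.90% and 0% in the same AM6545 libraries and 23.8%, 28.3% and 30.7% in Vehicle replicates B, D and E. In M21 the transcripts are identical over all 3944 bases of Arpp19-205, and Arpp19-209 goes on for 19 more at the 3′ end. Their annotated coding sequences have 336 and 435 bases. All 31-mers of Arpp19-205 (100%) are found in Arpp19-209. The bound given for Vehicle does not cover how reads were divided between this pair. Divided by transcript length, the share of Arpp19-205 differed by 11.5 percentage points in place of 27.1. Together the pair held 32.3%, 29.8%, 29.8% and 29.1% in AM6545 and 23.8%, 28.3% and 30.7% in Vehicle, with overlapping ranges.

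The other Arpp19 transcripts had nearly the same shares in both groups. Arpp19-203 held 38.7% ± 0.984 over AM6545 libraries (SD, n = 4) against 38.7% ± 1.89 over Vehicle libraries (SD, n = 3). Arpp19-211 held 22.9% ± 0.872 and 23.1% ± 3.61, and Arpp19-201 held 5.32% ± 0.696 and 5.64% ± 0.446 (SD, n = 4 and n = 3). At the transcript level 1 member transcript was called, Arpp19-205, where 0.0177% of 33962 transcripts were called (edgeR, adjusted p under 0.05). Since Arpp19 was chosen for this difference, nothing is read from the call.

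Mast2 (ENSMUSG00000003810, chr4:116306762-116464183, - strand) encodes a microtubule-associated serine/threonine kinase with a PDZ domain. Its total was 49.6 ± 5.74 CPM over AM6545 libraries (SD, n = 4) against 55.2 ± 3.72 CPM over Vehicle libraries (SD, n = 3), a log2 fold change of -0.15 (SE 0.11). Mast2-203 took 35.0%, 21.6% and 39.8% in Vehicle replicates B, D and E and was at 0 in AM6545, where the counts allow up to 0.0627%. Mast2-201 took 38.3%, 43.4%, 51.1% and 53.1% in AM6545 replicates B, D, E and F and 15.1%, 26.7% and 17.1% in Vehicle, without overlap. Mast2-202 took 30.2%, 39.9%, 47.2% and 0% in AM6545 and 49.4%, 51.0% and 31.7% in Vehicle. Mast2-204 took 30.3%, 15.6%, 0% and 45.9% in AM6545 and 0%, 0% and 10.1% in Vehicle. Mast2-202 and Mast2-204 thus ran from 0 to 47.2% and from 0 to 45.9% among AM6545 libraries alone.

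The 4 long Mast2 transcripts combine 2 features, the 21-base coding exon and the length of their 5′ end. Mast2-202 and Mast2-204 hold the small exon, and Mast2-203 and Mast2-204 begin furthest upstream. A further 3 coding bases are held by the transcripts that skip the small exon, Mast2-201 and Mast2-203. Counted by exon, transcripts that skip it held 38.5%, 43.7%, 51.1% and 53.1% in AM6545 replicates B, D, E and F and 50.2%, 48.5% and 56.9% in Vehicle replicates B, D and E. The groups overlapped. Counted by start, Mast2-203 and Mast2-204 together held 30.3%, 15.6%, 0% and 45.9% in AM6545 and 35.0%, 21.6% and 49.9% in Vehicle, again with overlap. None of the 4 transcripts holds a 31-mer of its own. The gene total and the sum of the transcripts differed by up to 0.857% in Mast2, and by nothing in the other 9 genes.

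**Figure D4:**
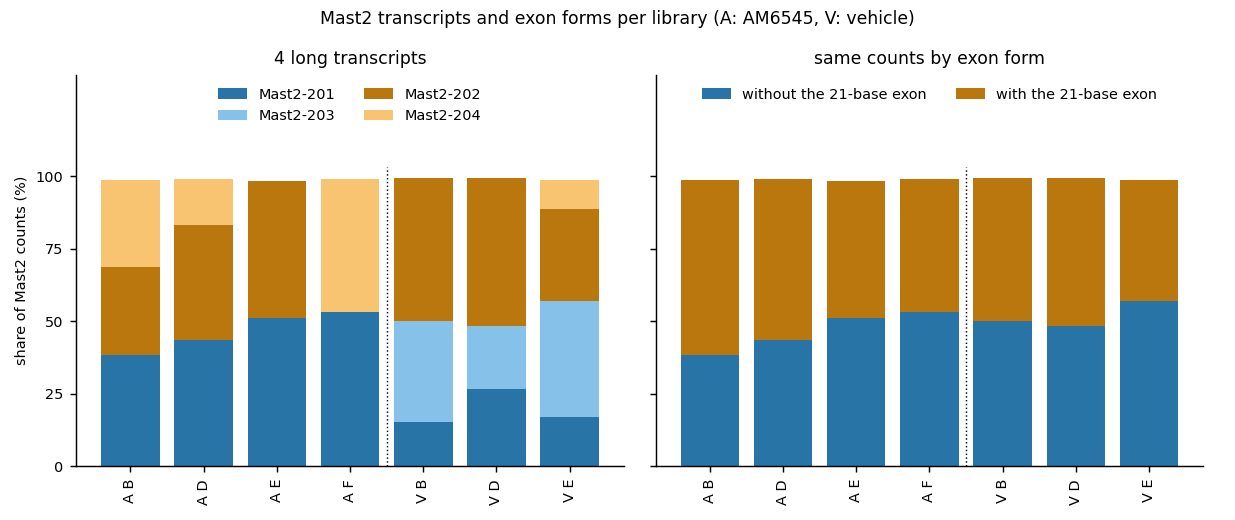
Share of Mast2 counts (%, vertical axis) in the 4 AM6545 (A) and 3 Vehicle (V) libraries, by transcript on the left and, for the same 4 transcripts, by presence of the 21-base exon on the right. Mast2-203 is counted only in Vehicle libraries, whereas the exon forms divide each library near the middle in both groups.

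Pptc7 (ENSMUSG00000038582, chr5:122284365-122324281, + strand) encodes a mitochondrial protein phosphatase of the PP2C family. Its total was 64.7 ± 2.32 CPM over AM6545 libraries (SD, n = 4) against 63.3 ± 3.68 CPM over Vehicle libraries (SD, n = 3), a log2 fold change of 0.03 (SE 0.09). The gene has 2 transcripts in the table. Pptc7-202 took 7.23%, 3.89%, 8.11% and 6.23% in AM6545 replicates B, D, E and F and was at 0 in Vehicle, where the counts allow up to 0.0693%. It begins 11407 bases downstream of Pptc7-201 with an exon of its own of 75 bases and ends 1941 bases earlier. Its coding sequence has 621 bases against 930. Divided by length, its share differed by 12.3 percentage points between the groups in place of 6.36. Of its 31-mers, 74 are absent from Pptc7-201.

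Apbb1 (ENSMUSG00000037032, chr7:105558483-105581653, - strand) encodes FE65, an adaptor that binds the intracellular tail of the amyloid precursor protein. Its total was 585 ± 54.7 CPM over AM6545 libraries (SD, n = 4) against 547 ± 93.7 CPM over Vehicle libraries (SD, n = 3), a log2 fold change of 0.10 (SE 0.13). Without single libraries it ran from 0.01 (without Vehicle replicate B) to 0.24 (without Vehicle replicate E), and it was 0.04 without AM6545 replicate B and 0.05 without Vehicle replicate D. Apbb1-205 took 1.12%, 2.33%, 3.33% and 0.735% in AM6545 replicates B, D, E and F and was at 0 in Vehicle, where the counts allow up to 0.00819%. The largest difference in share was that of Apbb1-219, which encodes the long protein, at 59.9% ± 2.74 over AM6545 libraries (SD, n = 4) against 52.0% ± 7.60 over Vehicle libraries (SD, n = 3), with overlap. Apbb1-215, which begins further downstream, held 23.3% ± 1.65 and 28.5% ± 6.07 (SD, n = 4 and n = 3). Apbb1-209, the closest relative of Apbb1-205, held 4.73% ± 2.19 and 5.49% ± 1.17 (SD, n = 4 and n = 3). Without Vehicle replicate B the difference of Apbb1-219 was 3.60 percentage points in place of 7.89. Vehicle replicate B stood lowest for Apbb1-219 (43.4%) and highest for Apbb1-215 (35.5%).

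Apbb1 holds a 6-base exon, shown above, which is known as a neuron-specific microexon. Transcripts joining it to the next exon held 89.1%, 89.6%, 90.8% and 89.6% of Apbb1 counts in AM6545 replicates B, D, E and F. In Vehicle replicates B, D and E they held 87.8%, 87.7% and 88.8%. Those skipping the small exon held 9.68% ± 0.774 over AM6545 libraries (SD, n = 4) against 11.4% ± 0.477 over Vehicle libraries (SD, n = 3). The groups did not overlap in either measure, but the measures are near complements and not separate observations. The difference in inclusion was 1.65 percentage points. Apbb1 was chosen from this contrast, so nothing further is read from it. Apbb1-205 skips the exon, yet it was counted in the group with the higher inclusion. Of the transcripts that skip it, Apbb1-217 carried most, at 7.15% ± 2.08 over AM6545 libraries (SD, n = 4) against 9.43% ± 0.296 over Vehicle libraries (SD, n = 3).

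Tstd2 (ENSMUSG00000035495, chr4:46114746-46138694, - strand) encodes a protein with a rhodanese domain, a fold known from sulphur transferases. Its total was 12, 12.1, 12.8 and 10.7 CPM in AM6545 replicates B, D, E and F and 6.97, 11.4 and 11.1 CPM in Vehicle replicates B, D and E. The log2 fold change was 0.28 (SE 0.17), and 0.08 without Vehicle replicate B. It was the least counted member, at 173 to 318 counts per library. Tstd2-201 took 40.4%, 45%, 21.7% and 37.5% in AM6545 and was at 0 in Vehicle, where the counts allow up to 0.453%. Tstd2-202 took 56.2%, 53.9%, 77.1% and 59.4% in AM6545 and 95.6%, 94.3% and 99.3% in Vehicle. The pair encode the same protein, with identical coding sequences of 1485 bases. They differ outside it: Tstd2-201 lacks 37 bases at the 5′ end and 3 bases at the edge of an exon, and it stops 986 bases earlier at the 3′ end.

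Across the 10 pairs, the shares of the group-exclusive transcript and its closest relative were added. The combined share overlapped between the groups in 9 of 10 genes, the exception being Tfe3. Of all 27940 single transcripts past the filter, 8.61% did not overlap in share. Overlap is thus usual, and this count, here and with the other relatives below, says little about the pairs. The combined share is 100% by construction in Pptc7, which has only 2 transcripts, and close to it in Cdk2ap1 and Tstd2. In Arpp19 the difference between the group means went from 27.1 to 2.63 percentage points, and in Mga from -25.4 to -0.642. In Mast2 it went from -32.2 to -12.6, in Usp2 from -5.99 to -4.47 and in Apbb1 from 1.88 to 1.12. Shares within a gene add to 100%, so a difference in any transcript is offset among the others. Part of this narrowing is therefore arithmetic, and nothing is read from it.

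For Tfe3 and Otud5 the sum depended on which relative was added. With Tfe3-205 the Tfe3 difference went from -34.5 to -28.6, without overlap. With Tfe3-201, which differs from Tfe3-204 mainly in the first exon, it went to -8.39. That sum was 81.9%, 63.0%, 87.1% and 64.7% in AM6545 replicates B, D, E and F and 82.7%, 82.5% and 82.5% in Vehicle replicates B, D and E, with overlap. With Otud5-205 the Otud5 difference changed sign, from -2.67 to 1.44, with overlap. With Otud5-201, whose own share was lower in AM6545, it went to -9.15. That sum was 33.6%, 38.8%, 37.7% and 40.2% in AM6545 and 52.2%, 43.9% and 44.1% in Vehicle, without overlap. By this second measure, too, 9 of 10 pairs overlapped, but the exception was Otud5.

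**Figure D5:**
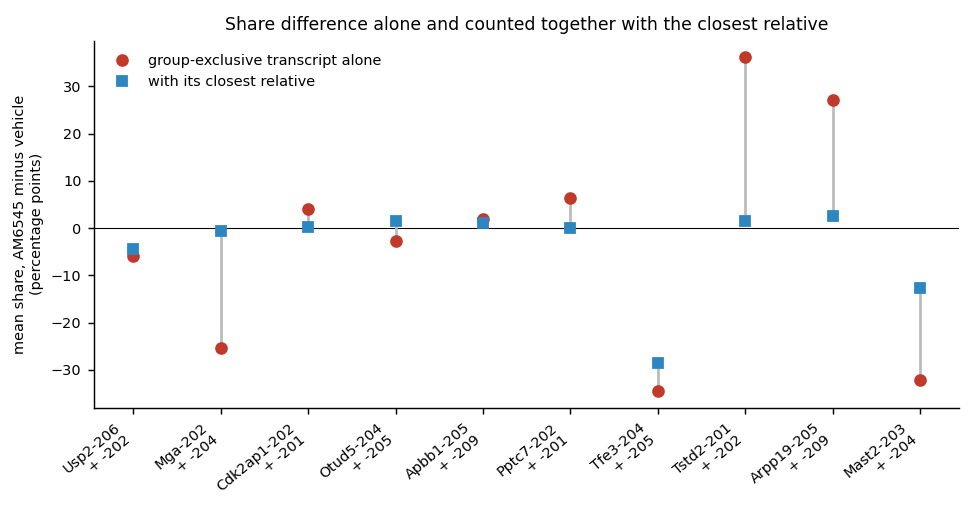
Difference in mean share between AM6545 (n = 4) and Vehicle (n = 3) in percentage points (vertical axis) for each group-exclusive transcript alone (red) and added to its closest relative (blue). The blue squares lie nearer to 0 than the red points in these 10 pairs, with Tfe3 at -28.6 and Otud5 at 1.44. With Tfe3-201 and Otud5-201 as relatives these would stand at -8.39 and -9.15, the latter farther from 0 than the red point. Shares within a gene add to a fixed total, so part of the shift toward 0 is arithmetic.

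Of the 10 group-exclusive transcripts, 4 held no 31-mer of their own within the gene: Mga-202, Apbb1-205, Arpp19-205 and Mast2-203. Among all 69 group-exclusive transcripts past the filter 29.0% held none, and among all 27940 transcripts 15.9%. Exact zeros also occurred within groups. Of the 27940 transcripts, 2728 (9.76%) were at 0 in 1 library and took at least 10% of their gene in another library of the same group, and 30.6% of those had no 31-mer of their own. Member transcripts with this pattern were Tfe3-205, Mast2-202 and Mast2-204 (3 of 47), all without a 31-mer of their own. The range of share among AM6545 libraries had a median of 3.89 percentage points over the 47 member transcripts and 4.98 over all 27940, and among Vehicle libraries 4.27 and 4.88. The group-exclusive members, 5 at 0 throughout each group, have a range of 0 there. The members' medians thus partly follow from how they were chosen.

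The group-exclusive transcripts counted in AM6545 were not all alike in base composition. Their GC content minus that of the closest relative was -4.87 percentage points for Cdk2ap1-202, 1.68 for Tstd2-201, 1.55 for Pptc7-202, 0.30 for Apbb1-205 and 0.16 for Arpp19-205. For those counted in Vehicle it was 1.5 for Usp2-206, 1.14 for Otud5-204, -0.45 for Tfe3-204, -0.30 for Mga-202 and -0.02 for Mast2-203. Both signs occurred in each set.

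Libraries held from 19174649 to 25894733 counts. The level of genes relative to their mean, on the log2(CPM + 1) scale, varied with GC content by -0.11 to -0.025 per 10 percentage points in AM6545 libraries and by 0.043 to 0.125 in Vehicle libraries, without overlap. Mitochondrially encoded mRNAs took 5.07% to 6.66% of counts in AM6545 and 6.11% to 9.83% in Vehicle, highest in Vehicle replicate B. The 10 synaptic marker genes were all detected and summed to 8450 to 8900 CPM (by library total) in AM6545 and 7730 to 8310 CPM in Vehicle, without overlap. Markers of other cells were present too: 8 oligodendrocyte genes summed to 17600 to 21000 and 16400 to 22400 CPM, 8 astrocyte genes to 3640 to 4660 and 3680 to 4700, and 10 microglial genes to 994 to 1120 and 1090 to 1290. The 7 endothelial and mural genes summed to 83.9 to 127 and 89.8 to 115 CPM, and 6 choroid plexus genes to 419 to 2010 and 1500 to 2860. No marker was at 0 in all libraries. In such bulk RNA, fewer cells of a type and less RNA per cell cannot be told apart, and the part of composition or GC content in the transcript shares was not tested.

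Relatives and partners of the 10 genes were read in the same fits, from 8 lists holding 146 genes. For transcript usage, edgeR's diffSpliceDGE called 2 of the 110 genes tested (adjusted p under 0.05), where it called 62 of 8691 genes (0.713%) in all. On simulated data, where single transcripts changed independently of the others of their gene, most calls of this test were false. The simulation did not divide shared reads among transcripts, as the real estimates do. Of the 10 members it called 9, all but Mast2, which follows from how they were chosen. At the gene level 0 of 144 relatives passed by edgeR's quasi-likelihood test, with 11 higher and 8 lower at an unadjusted p under 0.05, and 14.6% of all genes had such a p. Of the 144, 92 had a higher mean in AM6545 and 52 a lower one, with a median log2 fold change of 0.07, where over all genes tested 7528 were higher and 7125 lower, with a median of 0.01.

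Among 22 other deubiquitinases, 17 were tested for usage and 1 was called, Usp15 (diffSpliceDGE, adjusted p 0.0171). Usp15-208 took 6.63%, 3.28%, 4.07% and 9.31% of Usp15 counts in AM6545 replicates B, D, E and F and 0% in each Vehicle library. The call was lost with edgeR's gene F test (adjusted p 0.0698), with limma-voom (0.234) and with a mean of at least 50 counts per transcript (1.0). It was also lost with the replicate letter as a block (diffSpliceDGE, adjusted p 0.192). Otub2 came next (diffSpliceDGE, adjusted p 1.0). Cyld-210, named after its values were seen, was the other group-exclusive transcript among the relatives, at 13.2% to 19.8% in AM6545 and 0% in Vehicle. At the gene level 0 of 22 were called, 6 had an unadjusted p under 0.05, all higher, and the smallest belonged to Usp46, at 99.3 ± 5.97 CPM over AM6545 libraries (SD, n = 4) against 79.1 ± 7.86 CPM over Vehicle libraries (SD, n = 3; edgeR, adjusted p 0.231). Otud6b followed, with a log2 fold change of 0.28 (SE 0.10; edgeR, adjusted p 0.258).

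Among 47 regulators of splicing and polyadenylation, all were tested at the gene level and 0 were called, with 35 higher and 12 lower in AM6545 and a median log2 fold change of 0.08. An unadjusted p under 0.05 was found for 7, of which 4 were higher and 3 lower (edgeR). Elavl2, a neuronal RNA-binding protein, was at 49.8 ± 3.85 CPM over AM6545 libraries (SD, n = 4) against 38.0 ± 3.15 CPM over Vehicle libraries (SD, n = 3; edgeR, adjusted p 0.199). Ptbp2, a repressor of neuronal exons, was at 79.7 ± 9.15 and 61.9 ± 7.36 CPM (SD, n = 4 and n = 3; edgeR, adjusted p 0.243). For usage 1 of 42 was called, Elavl2 again (diffSpliceDGE, adjusted p 0.0204). The call was lost with the gene F test (0.102), with limma-voom (0.839) and with a mean of at least 50 counts (0.0934), and also without AM6545 replicates B, D or F (each 1.0) and without Vehicle replicates B (0.0676) or D (0.10). Elavl2-201 took 27.7% to 37.4% in AM6545 and 31.3% to 61.4% in Vehicle, with overlap. The next smallest p was that of Hnrnpk (adjusted p 0.381 by diffSpliceDGE).

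In the list around ARPP19, the MAST kinases and PP2A-B55, 0 of 15 genes were called at the gene level by edgeR and 0 had an unadjusted p under 0.05. Ppp2r2a and Ppp2r2b, regulatory subunits of PP2A, had log2 fold changes of 0.19 and 0.17 (SE 0.10 each; edgeR, adjusted p 0.407 and 0.443). For usage 0 of 10 were called (1 unadjusted), and the smallest p-values were those of Arpp21 (adjusted p 0.891) and Ppp2r2d (1.0) by diffSpliceDGE. Ppp2r2d-207 took 34.9% to 64.8% of its gene in AM6545 and 0% to 36.2% in Vehicle, with overlap. It holds no 31-mer of its own.

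In the MAX network and MiT/TFE list, 0 of 17 were called at the gene level (2 unadjusted, both lower), with Mlxip at -0.35 (SE 0.12; edgeR, adjusted p 0.250) and Mxd4 at -0.31 (SE 0.13; 0.316) on the log2 scale. For usage 0 of 11 were called (0 unadjusted by diffSpliceDGE), and Myc and Mycl came closest (adjusted p 1.0 each by diffSpliceDGE). Of the NuRD complex and CDK2, 0 of 15 were called (2 unadjusted, both lower). The chromatin remodeller Chd3 was at 133 ± 9.40 CPM over AM6545 libraries (SD, n = 4) against 180 ± 31.3 CPM over Vehicle libraries (SD, n = 3; edgeR, adjusted p 0.209), without overlap. Cdk2ap2, the paralog of Cdk2ap1, was at 39.2 ± 3.52 and 51.9 ± 11.4 CPM (SD, n = 4 and n = 3; edgeR, adjusted p 0.249).

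Of APP and its adaptors 0 of 11 were called (1 unadjusted by edgeR, lower), with Apba3 at -0.26 (SE 0.10; adjusted p 0.267) on the log2 scale. Of the PPM phosphatases and mitophagy partners 0 of 13 were called (1 unadjusted, higher), with Pdp1, the phosphatase of pyruvate dehydrogenase, at 0.27 (SE 0.11; edgeR, adjusted p 0.300). Of 4 rhodanese-domain genes tested 0 were called (0 unadjusted by edgeR), and 1 of the list's 5 genes was not tested. For usage 0 of 13 NuRD, 0 of 10 APP, 0 of 6 phosphatase and 0 of 1 rhodanese genes were called by diffSpliceDGE, and 0 in each list had an unadjusted p under 0.05. The smallest usage p-values in these lists were those of Chd4, Chd3, Aplp2, Apba2, Ppm1a, Bnip3 and Mpst (adjusted p 1.0 each by diffSpliceDGE).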

How the data were processed

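Messenger RNA of hippocampal synaptoneurosomes was measured in 4 AM6545 and 3 Vehicle libraries. The authors deposited estimated counts per gene and per transcript, made with Salmon 1.5.2 on mm10 per the submitters' processing notes; the annotation release is not given in the sources used here. Library totals were 19174649 to 25894733 counts. Estimated counts were rounded and tested with edgeR 4.0.16 in R 4.3.3 (TMM, filterByExpr, robust quasi-likelihood fit, Benjamini-Hochberg adjusted p under 0.05), and usage with diffSpliceDGE (Simes). Alternatives used DESeq2 1.42.0 and limma 3.58.1. A share is the percent of a gene's summed transcript counts, and a share of 0 was bounded by 3 counts, which covers counting error only.

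Symbols, exons and sequences came from GENCODE M21, which matched 22148 of 22248 genes and 101527 of 102392 transcripts; all 109 member transcripts have a deposited version 1 higher. Named transcripts were the group-exclusive one, those with the largest opposite differences in share, and those with a mean share of at least 5%; from each list, up to 2 genes with the smallest p for usage and for level were named. The members and lists were chosen with earlier results of these data known. The group-exclusive pattern, the closest relatives by either measure and the shares by intron were chosen after the values were seen. The tests were tested on simulated data, where most usage calls were false.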

Additional observations from a re-analysis of the deposited data

Results flagged for a closer look

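Usp2-204, a transcript annotated for nonsense-mediated decay, took 13.2% of Usp2 counts in AM6545 replicate D and 8.59% to 8.74% in the other AM6545 libraries, a library far from the rest of its group. It was the only one of 57 values tested in this way, of which chance would give 2.85, about 1 in 20. The 3 Vehicle libraries were too few for the same check.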

How the results depend on the processing

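Of 120 values of share differences under the other settings and without single libraries, 116 moved by less than 1 SD. This is largely fixed: 10 of the 12 transcripts are at 0 in a whole group and cannot change sign, and 35 of the values leave out a library of that group and return the same number. Of 130 values of gene totals, 127 moved by less than 1 SE, although these differences are small beside their errors: without Vehicle replicate B, Usp2 went from -0.07 to 0.02, Mga from -0.15 to -0.03 and Otud5 from 0.09 to 0.00. Counted together with Otud5-205, an alternative chosen after seeing the data, the difference of Otud5-204 reversed to 1.44 percentage points, and with Otud5-201 it was -9.15. The number of genes called was 1 (2134 at an unadjusted p under 0.05), 247 with DESeq2, and 0 to 944 without single libraries: 0 without AM6545 replicate E (1677 unadjusted) or Vehicle replicate B (954 unadjusted), and 944 without Vehicle replicate E. The number of transcripts called was 6, 27 with no low-count filter, 431 with DESeq2, and 1 to 14 without single libraries, with 14 again without Vehicle replicate E. The number of genes called for usage was 62, 21 with a mean of at least 50 counts, and 69 to 163 without single libraries, with 97 without AM6545 replicate F, 101 without Vehicle replicate D and 163 without Vehicle replicate E. Libraries of the same letter did not deviate together (correlations of -0.255, -0.13 and -0.18). With so few libraries, centred within their groups, this cannot exclude that the letters pair them. With the letter as a replicate block, edgeR called 0 transcripts (1597 unadjusted, 431 by DESeq2 without the block). For usage, 72 genes were called with the block. The usage call of Usp15 was lost with it (diffSpliceDGE, adjusted p 0.192) and that of Elavl2 was kept (0.0248). The cause of these changes was not tested. Depth limits Tstd2 most, where 0 counts allow a share of up to 0.453%.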
